A study of Homo sapiens with 6 samples.

Results

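Aminoacyl-tRNA synthetases are the enzymes that join each amino acid to its transfer RNA. The 37 genes described here encode cytosolic and mitochondrial members of that family and were taken by symbol from the 58735 genes of a count table of T47D cells, a widely used line of luminal human breast cancer. By the naming convention used, symbols ending in 2 stand for mitochondrial enzymes, and GARS and KARS serve both compartments. TARSL2 ends in 2 but encodes a threonyl-tRNA synthetase-like protein of the cytosol, so it was counted there. This gave 19 cytosolic genes, 2 genes of both compartments and 16 mitochondrial genes. The comparison was between 3 control libraries (titled CK) and 3 libraries of treated cells (titled CQ), all of unmodified T47D cells as far as the labels say. Its title names PM2.5, the fine fraction of airborne particles, and the protocol text, worded alike for both groups, places RNA extraction 48 h into exposure. The labels call the CQ cells only treated, so that they received PM2.5 is inferred, and "exposed" is used in that sense. No dose is stated. The replicates are called biological, but nothing says that they came from separate cultures, so p-values measure the spread between these samples, which may be technical.

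Human cells carry separate charging systems for cytosolic and mitochondrial protein synthesis, and all of the enzymes of both are encoded in the nucleus. Several cytosolic synthetases sit together with the scaffold proteins AIMP1, AIMP2 and EEF1E1 in the multi-synthetase complex, while the others work outside it. Uncharged tRNA activates the kinase GCN2, which raises the transcription factor ATF4, and cytosolic synthetase genes are among the genes that ATF4 is known to act on. ATF4 binds, with C/EBP partners, a composite element called CARE (C/EBP-ATF response element).

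Total counts per library ran from 30970218 to 36878525, and 17337 genes were tested. The 8 luminal markers (ESR1, PGR, GATA3, FOXA1, KRT8, KRT18, KRT19 and CDH1) were detected in every library and summed to between 19039 and 20921 CPM, the usual unit of counts scaled to library size, in controls and between 7951 and 9964 CPM in exposed libraries. KRT8, KRT19 and KRT18 made up most of that sum. Of the 8 markers 6 fell, where 22.1% of all tested genes were called lower. The falls ran from 1.21-fold for FOXA1 to 2.48-fold for ESR1 and 2.74-fold for PGR. GATA3 (log2 0.04 ± 0.08 SE, adjusted p = 0.72) and CDH1 (0.08 ± 0.08, adjusted p = 0.42) did not pass. Of 14 non-epithelial markers 9 had at most 11 counts in any library, and 1 of these, ALB, had 0 throughout. The 14 summed to between 67.1 and 75.7 CPM in controls and between 77.5 and 80.0 CPM in exposed libraries, most of it COL1A1 (61.6 ± 4.05 and 69.8 ± 1.43 CPM, SD, n = 3 per group). Their part in the results below was not tested.

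Rises were counted in both compartments, and the larger ones lay among the cytosolic genes and GARS, apart from the scarcely counted SARS2. Of 19 cytosolic genes 10 rose, 3 fell and 6 did not pass edgeR's quasi-likelihood test at a Benjamini-Hochberg adjusted p under 0.05. Over all tested genes 21.8% were called higher and 22.1% lower. The median log2 fold change was 0.26 for the cytosolic genes, -0.01 for the 16 mitochondrial genes and -0.02 for all tested genes. Of the mitochondrial genes 5 rose, 4 fell and 7 did not pass. The risers include SARS2, which passed the filter on low counts only through the exposed libraries; under a stricter filter that drops it, 4 mitochondrial genes rose and 4 fell. All 37 genes passed the filter on low counts, and together 16 rose (15 under the stricter filter), 7 fell and 14 did not pass, where 43.9% of all tested genes were called. In bulk RNA, more RNA per cell and more cells carrying it cannot be told apart.

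**Figure D1:**
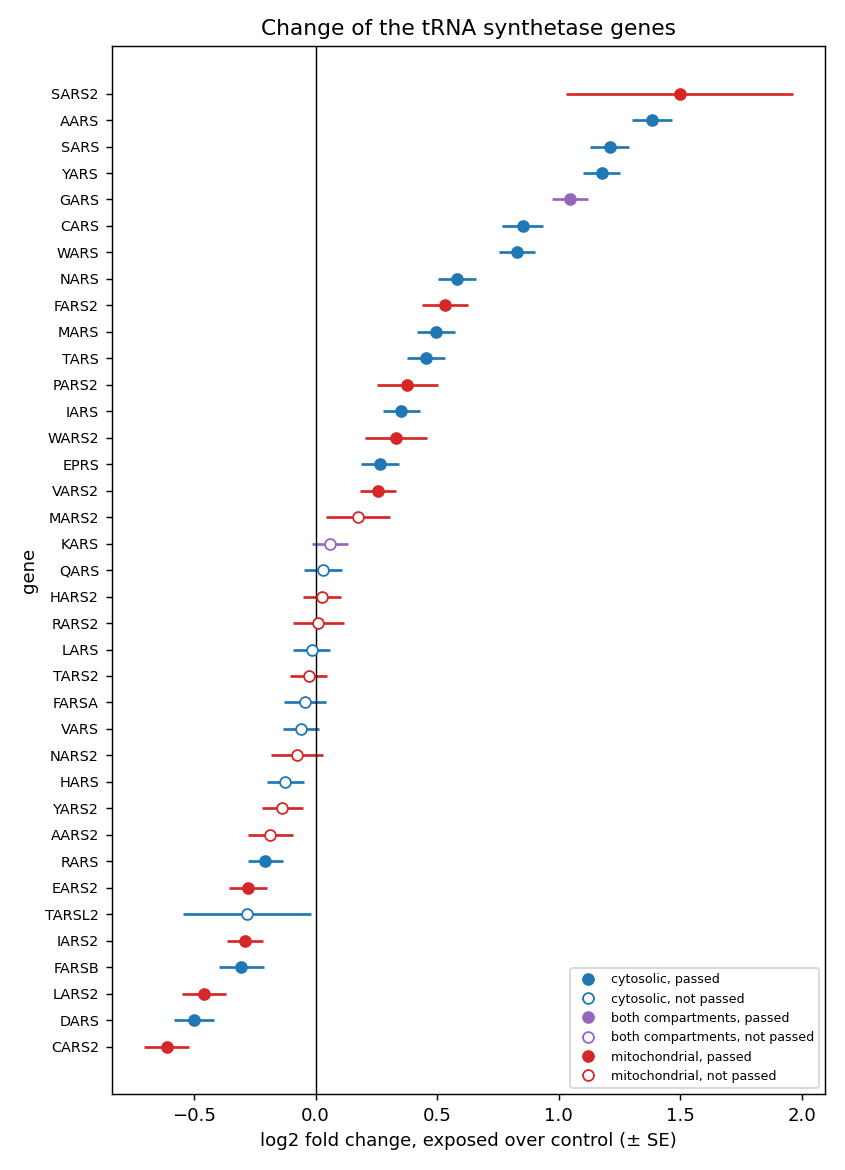
Each point is the log2 fold change of 1 synthetase gene (exposed over control, n = 3 per group) with its SE, coloured by compartment, filled where the gene passed the test. Below SARS2, whose SE is the widest, cytosolic points (blue) and GARS fill the upper end from AARS at 1.38 to NARS at 0.58, and the mitochondrial CARS2 is lowest at -0.61.

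At least a 1.5-fold rise together with the test was met by 7 synthetase genes, where 8.96% of all tested genes met it. They were AARS, SARS, YARS, CARS and WARS of the cytosol, GARS of both compartments, and the scarcely counted mitochondrial SARS2, without which 6 remain. AARS charges alanine (ENSG00000090861, GRCh38 chromosome 16, 70252295 to 70289543, minus strand). It stood at 299.7, 346 and 309 CPM in control replicates 1 to 3 and at 876, 862 and 754 CPM in exposed replicates 1 to 3. The lowest exposed library was well above the highest control, and the fold change was 2.61 (log2 1.38 ± 0.08 SE, adjusted p = 6.7e-15). AARS alone made up 11.1% ± 0.574 of the summed CPM of the cytosolic synthetases in controls and 20.6% ± 0.762 in exposed libraries (SD, n = 3 per group).

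SARS, which charges serine (ENSG00000031698, chromosome 1, 109213918 to 109238169, plus strand), was at 108, 126 and 112 CPM in controls and at 287, 269 and 246 CPM in exposed libraries. Its groups did not overlap, and it rose 2.31-fold (log2 1.21 ± 0.08 SE, adjusted p = 6.4e-14). YARS, the tyrosine enzyme (ENSG00000134684, chromosome 1, 32775237 to 32818153, minus strand), was at 136, 157 and 138 CPM in controls against 334, 337 and 305 CPM in exposed libraries, again apart, a 2.26-fold rise (log2 1.18 ± 0.08 SE, adjusted p = 6.6e-14). GARS charges glycine in the cytosol and in mitochondria from the same gene (ENSG00000106105, chromosome 7, 30594681 to 30634033, plus strand). Its control libraries lay close together at 148, 151 and 153 CPM, its exposed libraries at 303, 335 and 296 CPM, and it rose 2.06-fold (log2 1.05 ± 0.07 SE, adjusted p = 4.6e-13). KARS, the lysine enzyme that also serves both compartments, was at 145, 142 and 150.4 CPM in controls and at 156, 143 and 157 CPM in exposed libraries. These groups overlapped, and KARS did not pass (log2 0.06 ± 0.07 SE, adjusted p = 0.53).

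CARS, which charges cysteine, was at 51.9, 54.0 and 49.2 CPM in controls and at 91.9, 104 and 83.8 CPM in exposed libraries. It rose 1.81-fold with no overlap (log2 0.85 ± 0.08 SE, adjusted p = 7.1e-10). WARS charges tryptophan and is known as a gene induced by interferon gamma. It was at 132, 125 and 133 CPM in controls and at 240.2, 229.6 and 223 CPM in exposed libraries, a 1.78-fold rise with no overlap (log2 0.83 ± 0.07 SE, adjusted p = 5.6e-11). The asparagine enzyme NARS lay just under 1.5-fold, with log2 0.58 ± 0.08 (adjusted p = 2.2e-07), and the threonine enzyme TARS was at 0.45 ± 0.08 (adjusted p = 1.7e-05). GARS, WARS and YARS share 99, 287 and 396 exon bases with GARS-DT, WDR25 and S100PBP, respectively, on the opposite strand. Those neighbours gained 9.16, 7.82 and 8.10 CPM from control to exposed, against 161, 101 and 181 CPM for GARS, WARS and YARS.

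**Figure D2:**
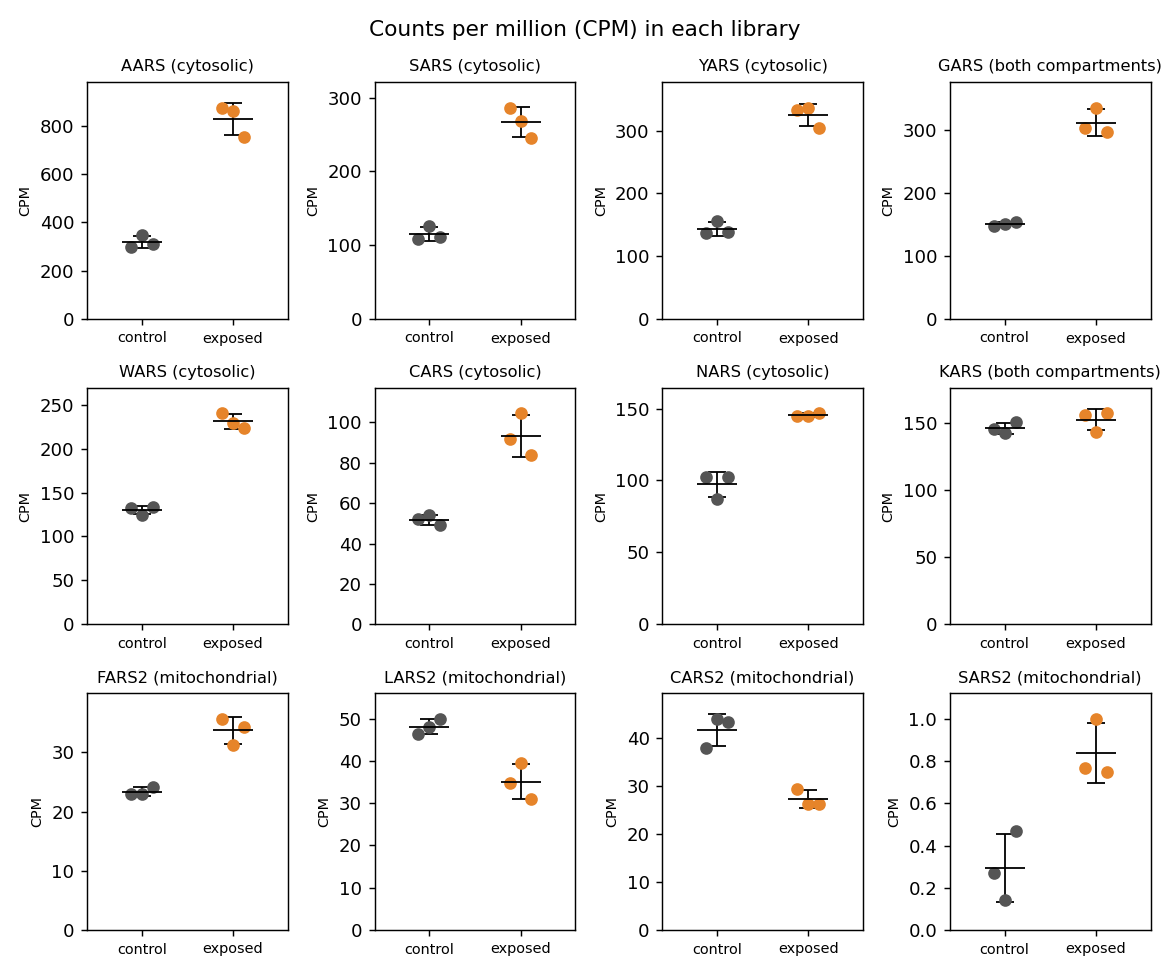
Each panel shows CPM in the 3 control (grey) and 3 exposed (orange) libraries of 1 gene, with the mean and SD (bars), on linear axes that start at 0. AARS, SARS, YARS, GARS, WARS, CARS and NARS have no overlap between groups, KARS does overlap, FARS2 and the scarcely counted SARS2 are higher in all 3 exposed libraries, and LARS2 and CARS2 are lower in all 3 exposed libraries.

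Cytosolic enzymes were next divided by the multi-synthetase complex. Beside the counts below, 21.8% of all tested genes were called higher, 8.96% higher by at least 1.5-fold, and 22.1% lower. Of the 8 synthetase genes of the multi-synthetase complex (EPRS, IARS, LARS, MARS, QARS, RARS, DARS and KARS) none rose by 1.5-fold and the median log2 fold change was 0.05, with 3 higher, 2 lower and 3 not passed. Of 13 genes of enzymes outside it (GARS included) 8 rose, 6 of them by at least 1.5-fold, 1 fell and 4 did not pass, with a median of 0.58. The difference between these sets of genes was described and not tested. Leaving out KARS and GARS, the medians were 0.03 for 7 complex genes and 0.52 for 12 others. The 2 structural classes of synthetases, which differ in the fold of the catalytic domain, had 5 of 9 cytosolic genes higher in class I and 4 of 9 in class II, with medians of 0.35 and -0.04. These counts leave out EPRS, which holds both classes, and the class II genes GARS (log2 1.05) and KARS (0.06). The difference between the classes was not tested.

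The promoters of these genes were searched for the CARE core, spelled TGATGNAA, on both strands. RefSeq windows of 300 bases (250 before and 50 after each start, GRCh38.p14) were at hand for 30 of the 37 genes. A match was found in 8 genes (26.7%), against 3.60% of 15843 protein-coding genes with such windows. It was present for 6 of 14 cytosolic genes, 1 of 2 genes of both compartments and 1 of 14 mitochondrial genes. Each match is shown in capitals with its flanks, 5′ to 3′ on the strand of the gene, to show that 5 of the 8 hold the same letters.
AARS: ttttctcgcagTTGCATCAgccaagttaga
CARS: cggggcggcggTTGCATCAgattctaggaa
IARS: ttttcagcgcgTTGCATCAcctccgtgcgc
MARS: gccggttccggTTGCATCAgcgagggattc
TARS: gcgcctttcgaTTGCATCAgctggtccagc
NARS: tctacgctctcTGATGCAAcgccggaa
GARS: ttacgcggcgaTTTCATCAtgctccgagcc
YARS2: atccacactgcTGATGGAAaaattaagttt

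The stretches lie at chr16:70289675-70289704 (AARS, minus), chr11:3057407-3057436 (CARS, minus), chr9:92293692-92293721 (IARS, minus) and chr12:57488053-57488082 (MARS, plus). Those of the others are at chr5:33440956-33440985 (TARS, plus), chr18:57621807-57621833 (NARS, minus), chr7:30594834-30594863 (GARS, plus) and chr12:32756076-32756105 (YARS2, minus). In CARS, IARS, MARS, NARS and TARS the match began within 14 bases of the start, in AARS 187 bases before it and in YARS2 197 bases before it. In GARS it lay 33 bases before the second listed start and after the first. NARS holds the reverse complement of the letters shared by AARS, CARS, IARS, MARS and TARS.

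All 7 cytosolic or shared genes with a match rose (median log2 fold change 0.58), and of 9 such genes with a window and no match 3 rose and 2 fell (median 0.03). The mitochondrial gene with a match, YARS2, did not pass. Over all tested genes with windows, 28.4% of 303 genes with a match and 25.0% of 10592 without one were called higher. A match is a description and not a binding site. SARS rose 2.31-fold with no match in the windows of its 2 listed starts. Sites outside the windows or with other letters were not searched. The 250 bases before its first listed start (chr1:109213643-109213892, plus strand) are shown.
SARS: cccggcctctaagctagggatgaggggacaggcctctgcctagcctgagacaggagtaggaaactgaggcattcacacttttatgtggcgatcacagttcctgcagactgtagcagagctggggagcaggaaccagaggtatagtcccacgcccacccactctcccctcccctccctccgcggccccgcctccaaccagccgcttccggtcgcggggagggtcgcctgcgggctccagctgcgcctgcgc

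WARS, also higher, had no match, and YARS had no window. The palindromic E-box CACGTG, bound by MYC among others, was found in CARS2, EARS2, MARS2 and IARS (13.3% of 30 against 10.9% of all genes with windows). The palindromic consensus of NRF1, a factor known for genes of mitochondrial function, was found in MARS2 alone (3.33% against 1.99%). Where a window held matches of 2 motifs (IARS and MARS2), they did not overlap.

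**Figure D3:**
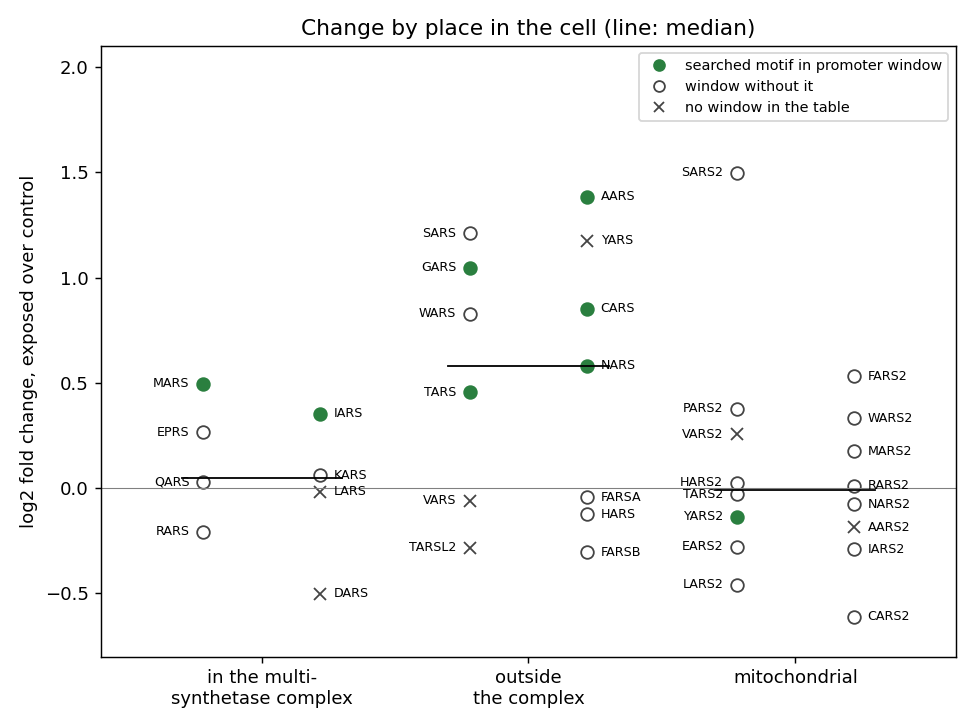
Each point is the log2 fold change of 1 gene, by place in the cell, with the median of each set as a line; green points have the searched ATF4-type motif in their promoter window, open points do not, and crosses had no window. The 7 green points of the complex and outside it all lie above 0.35, while SARS and WARS are high and open.

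Within the complex MARS, for methionine, had the largest rise. It was at 227, 255 and 241 CPM in controls and at 339, 367 and 313 CPM in exposed libraries, with no overlap (log2 0.50 ± 0.08 SE, adjusted p = 3.5e-06). MARS shares 355 of its 7028 exon bases with DDIT3, the gene of the stress factor CHOP, on the opposite strand. DDIT3 rose from 10.9 ± 3.27 to 149 ± 12.8 CPM (SD, n = 3 per group), a gain of 138 CPM, and MARS gained 99.0 CPM. With the strand setting not given, reads over the shared bases cannot be told apart. IARS, for isoleucine, was at 0.35 ± 0.08 (log2 ± SE, adjusted p = 4.0e-04), and EPRS, a fused enzyme for glutamate and proline, at 0.26 ± 0.08 (adjusted p = 0.0061).

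Other genes of the complex were flat or lower. DARS, for aspartate, fell from 66.8 ± 4.73 to 47.2 ± 2.003 CPM (SD, n = 3 per group; log2 -0.50 ± 0.08 SE, adjusted p = 9.0e-06), and its control libraries (61.4 to 70.5 CPM) lay above its exposed libraries (46.0 to 49.5 CPM). RARS, for arginine, was called lower at -0.21 ± 0.07 (adjusted p = 0.023). That call was lost in 5 of the 6 fits that dropped a library. Dropping control replicate 1 or 3 gave adjusted p = 0.0571 and 0.109, and dropping exposed replicates 1, 2 and 3 gave 0.106, 0.0616 and 0.0703. It also ended with the replicate number as a block (adjusted p = 0.0645) and with no filter on low counts (0.0572). QARS, for glutamine, stood at 0.03 ± 0.08 and LARS, for leucine and also a leucine sensor, at -0.02 ± 0.08, and neither passed (adjusted p = 0.77 and 0.89).

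Among enzymes outside the complex, the genes of the 2 subunits of the cytosolic phenylalanine enzyme differed in their call. FARSB fell from 32.6 ± 2.26 to 26.4 ± 1.38 CPM (SD, n = 3 per group; log2 -0.30 ± 0.09 SE, adjusted p = 0.0086), and dropping the third control (adjusted p = 0.0605) or the second exposed library (0.0549) took the call away. FARSA was at 235 ± 30.04 and 228 ± 23.0 CPM and did not pass (adjusted p = 0.71); whether the subunits differed in their change was not tested. VARS, for valine, was at -0.06 ± 0.07, HARS, for histidine, at -0.12 ± 0.07 and TARSL2, at 2.16 CPM in controls, at -0.28 ± 0.26 (log2 ± SE). None of these 3 passed (adjusted p = 0.55, 0.18 and 0.41).

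The mitochondrial genes moved both ways, as did all tested genes (21.8% called higher and 22.1% lower). CARS2, which charges mitochondrial cysteine tRNA (ENSG00000134905, chromosome 13, 110641412 to 110713603, minus strand), was at 37.8, 43.9 and 43.2 CPM in controls and at 29.4, 26.1 and 26.2 CPM in exposed libraries. All 3 exposed values were under all 3 controls, and log2 was -0.61 ± 0.09 (adjusted p = 2.5e-06), the only fall of at least 1.5-fold among the 37 genes, where 11.2% of all tested genes had one. LARS2, for leucine, was at 46.4, 48.0 and 50.02 CPM in controls and at 34.7, 39.4 and 31.1 CPM in exposed libraries, also without overlap (log2 -0.46 ± 0.09 SE, adjusted p = 1.3e-04). IARS2, for isoleucine and the most abundant mitochondrial synthetase gene here, fell from 247 ± 12.7 to 202 ± 4.08 CPM, and EARS2, for glutamate, from 74.3 ± 3.15 to 61.3 ± 0.908 CPM (SD, n = 3 per group; adjusted p = 0.0016 and 0.0041). EARS2 shares 370 exon bases with UBFD1 on the opposite strand, which fell as well (log2 -0.37 ± 0.07 SE).

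FARS2, for phenylalanine, had the smallest adjusted p among the mitochondrial genes that rose. It was at 22.9, 22.9 and 24.2 CPM in controls and at 35.7, 31.2 and 34.3 CPM in exposed libraries, with no overlap (log2 0.53 ± 0.09 SE, adjusted p = 2.3e-05). VARS2, for valine, was at 0.26 ± 0.08 (log2 ± SE, adjusted p = 0.0063), PARS2, for proline, at 0.38 ± 0.13 (adjusted p = 0.015) and WARS2, for tryptophan, at 0.33 ± 0.13 (adjusted p = 0.037). VARS2 shares 1858 of its 8448 exon bases with GTF2H4 on the same strand, which had 27 counts over all 6 libraries, against 19133 for VARS2. The PARS2 groups overlapped, and PARS2 did not pass once the third control (adjusted p = 0.116) or the first exposed library (0.0723) was dropped. WARS2 did not pass when control library 1 or 3 was dropped (adjusted p = 0.151 and 0.0704), nor when exposed library 2 or 3 was (0.0986 and 0.0545), nor with upper-quartile factors, no filter or the replicate block (0.0692, 0.0639 and 0.0582).

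SARS2, for serine, was near the limit of counting. Control libraries held 10, 5 and 17 of its counts, and exposed libraries 26, 31 and 27. It passed the filter on low counts only through the exposed libraries, so its call as higher (log2 1.497 ± 0.47 SE, adjusted p = 0.0095) supports nothing, and it was lost when the second control was dropped (adjusted p = 0.0595). SARS2 shares 46.2% of its exon bases with AC011455.2 on the same strand, which had 1 count over all 6 libraries, against 116 for SARS2. It also shares 349 exon bases with MRPS12 on the opposite strand, which had 15846 counts. The other mitochondrial genes, AARS2, YARS2, NARS2, TARS2, RARS2, HARS2 and MARS2, lay between -0.19 and 0.18 on the log2 scale and did not pass (adjusted p from 0.10 to 0.94).

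To compare the compartments inside each library, the counts of a cytosolic gene were divided by those of the mitochondrial gene for the same amino acid, which cancels the library scaling. Of 17 such pairs the ratio was higher in every exposed library than in any control library for 10 and lower for 5, and 2 overlapped. Non-overlap was common in these libraries: of the CPM of all tested genes, 25.5% did not overlap and were higher and 26.5% did not overlap and were lower. For MARS to MARS2 the gap was narrow, with a highest control of 4.808 and a lowest exposed value of 4.812 (log2). With 3 against 3 libraries an exact two-sided permutation test cannot give less than p = 0.10, the value reached by all 15 (adjusted p = 0.11 over 17 pairs). EPRS and FARS2 each enter 2 pairs. The log2 ratio of AARS to AARS2 was 3.19, 3.39 and 3.37 in controls and 4.96, 4.86 and 4.82 in exposed libraries, a shift of 1.57. AARS2 itself, at 32.9, 33.1 and 29.9 CPM in controls and at 28.1, 29.6 and 26.6 CPM in exposed libraries, did not pass (adjusted p = 0.10), although its groups did not overlap.

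The ratio of CARS to CARS2 shifted by 1.46, from 0.31 ± 0.14 to 1.77 ± 0.20 (log2, SD, n = 3 per group), with CARS higher and CARS2 lower. YARS to YARS2 shifted by 1.31, from 1.68 ± 0.13 to 2.99 ± 0.10; YARS2 was at 42.0, 45.1 and 47.7 CPM in controls and at 39.9, 41.2 and 41.6 CPM in exposed libraries and did not pass (adjusted p = 0.20). Phenylalanine went the other way. The ratio of FARSB to FARS2 went from 0.48 ± 0.07 to -0.35 ± 0.02, so that FARSB, at 33.1, 30.1 and 34.6 CPM in controls and at 27.5, 24.8 and 26.9 CPM in exposed libraries, had more counts than FARS2 in every control and fewer in every exposed library. FARSA to FARS2, VARS to VARS2, RARS to RARS2 and HARS to HARS2 also had lower ratios, by -0.57, -0.32, -0.21 and -0.15.

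**Figure D4:**
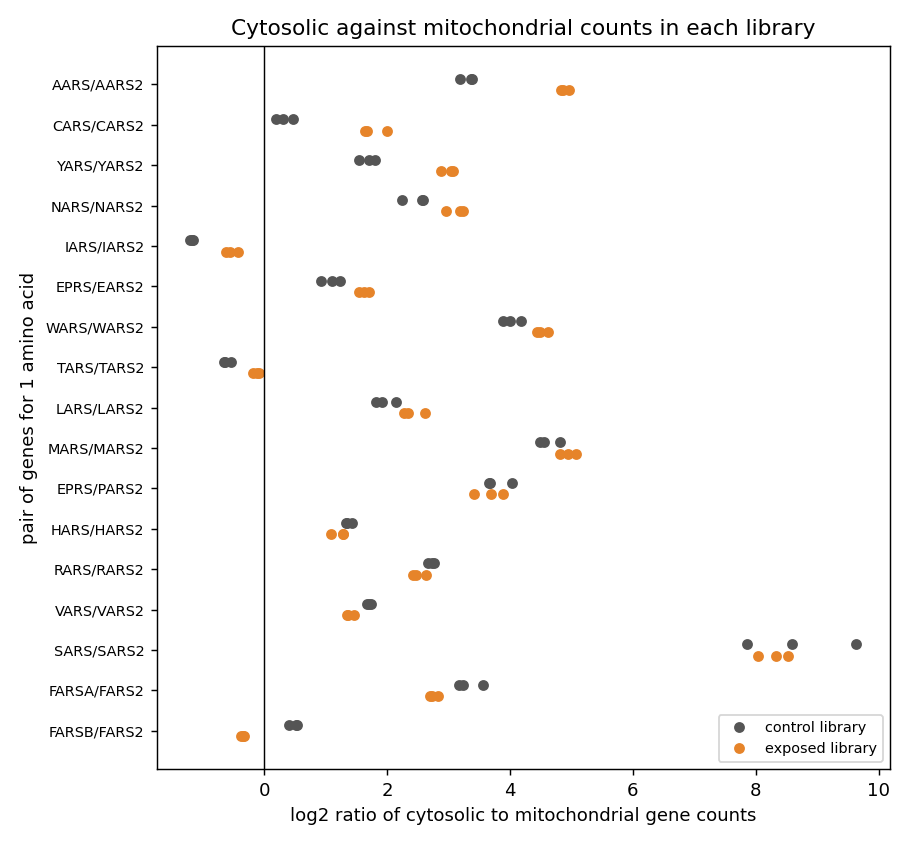
Each row is a pair of genes for 1 amino acid, and points are the log2 ratio of cytosolic to mitochondrial counts in control (grey) and exposed (orange) libraries. Exposed points lie to the right of control points for 10 pairs, AARS/AARS2 at the top, and to the left for 5, FARSB/FARS2 at the bottom.

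Summed over genes, the cytosolic synthetases went from 2873 ± 74.3 to 4025 ± 180.2 CPM, 1.40-fold higher, and the mitochondrial ones from 813 ± 16.9 to 752 ± 14.3 CPM (SD, n = 3 per group). GARS and KARS together went from 297 ± 5.996 to 463 ± 12.9 CPM. None of these sums overlapped between groups, and without AARS the cytosolic sum was still 1.25-fold higher. Sums weigh abundant genes most. Within the mitochondrial sum IARS2 alone went from 247 to 202 CPM, and the median log2 fold change of the mitochondrial genes was -0.01. The lower mitochondrial sum is therefore not a fall shared by these genes. The ratio of the cytosolic to the mitochondrial sum was 3.52, 3.65 and 3.44 in controls and 5.50, 5.38 and 5.17 in exposed libraries.

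Levels between genes were compared as CPM per kilobase of exon. The length used was that of all annotated exons of a gene together, from 2435 bases for FARSA to 10460 for CARS2, for example. It is not the length of the transcripts in these cells, so the order of genes depends on it. In controls FARSA was highest at 96.4 ± 12.3, ahead of QARS at 79.8 ± 4.62 and AARS at 70.7 ± 5.52, and the libraries of QARS and AARS overlapped. IARS2, at 59.3 ± 3.05, was the only mitochondrial gene among the 10 highest. In 19 of the 36 steps of the order the control libraries of neighbouring genes overlapped. In exposed libraries AARS was highest at 185 ± 14.8 per kilobase, GARS stood at 75.0 ± 4.98 and SARS at 69.6 ± 5.30 (SD, n = 3 per group). YARS went from the 18 to the 9 position and RARS from 8 to 14. SARS2 was lowest in both groups and TARSL2 next to it.

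**Figure D5:**
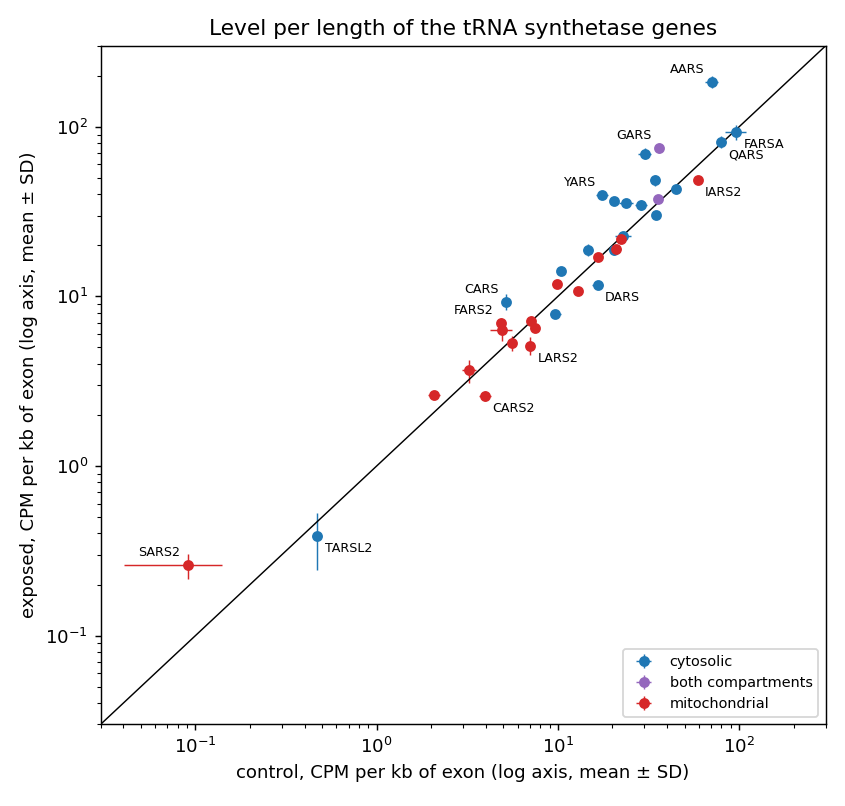
Each point is 1 gene at its mean CPM per kilobase of exon in control (x) and exposed (y) libraries, both log axes, with SD bars over 3 libraries and a line of equality. AARS, GARS, YARS and CARS lie above the line, CARS2, DARS, LARS2 and IARS2 below it, and SARS2 and TARSL2 at the low end.

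Genes that work beside the synthetases were counted in the same fit, where 21.8% of all tested genes were called higher and 22.1% lower. The lists are short and were not tested, so their counts are no result about the lists. Of the 3 scaffold genes of the complex AIMP2 rose from 46.6 ± 4.44 to 56.9 ± 3.87 CPM (SD, n = 3 per group; log2 0.29 ± 0.09 SE, adjusted p = 0.0078), and AIMP1 at 0.03 ± 0.09 and EEF1E1 at 0.13 ± 0.16 did not pass. XPOT, which exports tRNA from the nucleus, rose from 178 ± 13.7 to 252 ± 23.0 CPM (adjusted p = 5.0e-06). With it in a list of 6 genes for tRNA export, repair and selenocysteine charging, DTD1, SEPSECS and AARSD1 rose and TRNT1, which adds the CCA end of tRNA, fell by 0.54 on the log2 scale. The SEPSECS groups overlapped (adjusted p = 0.040), and AARSD1 was scarcely counted, at 0.907 CPM in controls. Of 4 helpers of mitochondrial charging QRSL1, a subunit of the amidotransferase that makes glutaminyl-tRNA, was at 0.36 ± 0.12 and rose, its partner GATC was at -0.25 ± 0.09 and fell, and GATB and MTFMT did not pass. Of 12 tested mitochondrial translation factors MTIF2 and MTIF3 rose and 10 did not pass (median log2 fold change -0.01).

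A list of 19 genes was named for the amino acid response. It also holds EIF2AK1, EIF2AK2 and EIF2AK3, genes of kinases other than GCN2, so its name states no cause. Of the 19 genes 12 rose, 11 of them by at least 1.5-fold, and EIF2AK2, EIF2S1 and GCN1 fell (median log2 fold change 0.68). Which kinase, if any, was active was not tested. Over all tested genes 21.8% were called higher, and 8.96% were called higher by at least 1.5-fold. The list was chosen with earlier results of these data known, so its count is a description and was not tested. ATF4 was at 243, 291 and 254 CPM in controls and at 612, 597 and 566 CPM in exposed libraries, with no overlap (log2 1.17 ± 0.08 SE, adjusted p = 1.6e-13). The pseudokinase TRIB3 was at 2.20 ± 0.10, the sestrin SESN2 at 1.198 ± 0.09 and the C/EBP factor CEBPG at 1.40 ± 0.10 (log2 ± SE). EIF2AK4, which encodes GCN2, was at -0.18 ± 0.08 and did not pass (adjusted p = 0.090), and its coactivator GCN1 fell by 0.30 on the log2 scale (adjusted p = 0.0019).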

How the data were processed

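Libraries were made from TRIzol-extracted RNA with a NEBNext Ultra kit and sequenced on a NovaSeq instrument, per the labels' protocols. The authors deposited raw read counts per gene. The build, GRCh38, comes from the submitters' processing notes, and no source used here names an aligner, counter or strand setting. Gene lengths are the deposited ones and equal the union of GENCODE 29 exons for all 37 genes, and 20 of these share exon bases with another gene.

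The 6 libraries were fitted together by the robust quasi-likelihood test of edgeR 4.0.16 (R 4.3.3) after TMM scaling and filterByExpr (minimum count 10, minimum total 15), with Benjamini-Hochberg adjustment over 17337 genes and a threshold of 0.05. SE is the log2 fold change divided by the root of F. CPM uses TMM-scaled library sizes. Pair ratios add 0.5 counts. In counts simulated over 17068 genes, 71.6% of 67 genes changed 1.5-fold and 100% of 67 changed 2-fold were recovered. Of 16868 unchanged genes 0.0593% were called. The changed genes were few, none had low counts, and all genes had the same dispersion. In the data 43.9% of tested genes were called, so these shares do not give the recovery there, nor that of scarcely counted genes. No pair of replicates agreed within sampling noise (chi-square over its degrees of freedom, 7.11 to 14.9). No test was made over sets of genes. The members and lists were chosen with earlier results of these data known.

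All 37 genes are named. Values in every library are given for members past the threshold with at least a 1.5-fold change, the 3 mitochondrial genes with the smallest adjusted p, GARS, KARS and the 4 pairs whose ratio shifted most, and for MARS, chosen after its values were seen, as were EIF2AK2, EIF2AK4, EIF2S1, GCN1, SEPSECS and the overlapping and neighbouring genes. Other lists give up to 4 members with the smallest adjusted p, and ATF4, AIMP1, AIMP2, EEF1E1 and XPOT. The classes of complex and structure, the overlapping genes and the promoter motifs come from general knowledge, GENCODE 29 and RefSeq and were looked at without a fixed plan. Alternatives were other scaling factors and filters, DESeq2 1.42.0, limma-voom (limma 3.58.1), the replicate number as a block, fewer genes, a fold minimum, other classes for TARSL2, GARS and KARS, and leaving out each library, which for the pair ratios was added after seeing the data.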

Additional observations from a re-analysis of the deposited data

How the results depend on the processing

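Of 23 synthetase genes called, 18 kept their call in each of the 15 refits with another scaling, filter, test, block, gene set or left-out library, and of 14 not called 13 stayed so; AARS2 was called lower with upper-quartile factors (log2 -0.23, adjusted p = 0.043). The calls that ended in these refits were those of RARS, WARS2, FARSB, PARS2 and SARS2. The stricter filter dropped SARS2 and gave it no value. With a 1.5-fold minimum, which is not among those refits, 7 synthetase genes were higher and 1 lower (5 cytosolic higher and 0 lower, 1 mitochondrial higher and 1 lower), beside 1554 of all genes higher and 1939 lower. Leaving out 1 library gave 1 to 3 cytosolic genes lower and 3 to 4 mitochondrial genes higher; the 1 cytosolic fall left without control replicate 3 or exposed replicate 2 was that of DARS. The cytosolic count of 10 higher held under every scaling, filter, test and left-out library. The mitochondrial median lay between -0.05 and 0.00 over these settings and changed sign, so it gives no direction. Same-numbered libraries did not deviate together (Pearson's r of -0.07, -0.08 and 0.01 across genes), so the numbers were not taken as pairs; with the replicate block 15 synthetase genes were higher and 6 lower, and 3359 of all genes were higher and 3420 lower. SARS2, with 5 to 31 counts per library, has the fewest counts behind its value.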

Other observations

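Of the synthetase genes 10 have a protein-coding gene that starts within 1000 bases on the opposite strand, and neighbours did not share one pattern. HARS and HARS2, the cytosolic and mitochondrial histidine genes, are such neighbours on chromosome 5, overlap by 437 exon bases, and neither passed (log2 -0.12 ± 0.07 and 0.03 ± 0.08, SE). DDX19B, which starts 120 bases from AARS, rose by 0.40 on the log2 scale where AARS rose by 1.38. WDR25 rose with WARS (log2 0.59 ± 0.11 SE) and UBFD1 fell with EARS2, whereas ING1 rose (0.41 ± 0.12) beside CARS2, which fell, and TERF2IP rose (0.47 ± 0.08) beside KARS, which did not pass. LYRM4 beside FARS2, ORC3 beside RARS2 and MRPS12 beside SARS2 did not pass (adjusted p = 0.29, 0.41 and 0.17). Where the exons overlap, reads of the neighbours cannot be told apart.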
